A study of Mus musculus with 2 samples.

Results

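The miR-181 family was described across cultured aortic smooth muscle cells of control db/+ and diabetic db/db mice. Its members were the rows with 1 of 7 names, 4 guide strands (miR-181a-5p, miR-181b-5p, miR-181c-5p and miR-181d-5p) and 3 strands from the opposite arm (miR-181a-1-3p, miR-181a-2-3p and miR-181c-3p), out of 1909 mature microRNA names in the files. All 7 passed the minimum of 50 counts in at least 1 library. Another 3 names of the family, miR-181b-1-3p, miR-181b-2-3p and miR-181d-3p, stayed below that minimum and are given where they help to tell the loci apart.

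The cells came from the thoracic aorta of male mice 10 to 12 weeks old and were cultured in DMEM/F-12 with 10% serum. The db/db cells carried the leptin receptor mutation of the BKS.Cg-m+/+Leprdb/J strain, whose homozygotes become obese and diabetic, and the db/+ cells were labelled Lepr+/-. Each group was 1 library of small RNA, and the sources used here do not give the number of mice or the passage behind each culture. A difference below is therefore a difference between 2 libraries, and no test between the genotypes was possible. The name miR-504 stands in the study's title, and the miR-181 family was measured along with all other microRNAs.

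MicroRNAs are cut from a hairpin as a duplex of a 5p and a 3p arm. The arm loaded into Argonaute, the guide, pairs with messenger RNAs mainly through its seed, bases 2 to 8, while most of the other arm is degraded. In mice the family comes from 6 hairpins in 3 pairs, on chromosomes 1, 2 and 8. It is known for setting the sensitivity of T cell receptor signalling, for restraining NF-kB signalling in vascular endothelium through importin-alpha3, and, in smooth muscle cells, for acting on osteopontin.

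The 4 guide strands are shown first because they share a seed, given in capitals, and differ only beyond it (RefSeq, GRCm38.p6).
mmu-miR-181a-5p: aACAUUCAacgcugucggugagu
mmu-miR-181c-5p: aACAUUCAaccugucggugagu
mmu-miR-181b-5p: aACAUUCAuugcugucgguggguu
mmu-miR-181d-5p: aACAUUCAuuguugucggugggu
No other mature name in the RefSeq table, which matched 1623 of the 1909 names and 7 of the 7 members, has that seed. Counted from the 5′ end of the strand named first, miR-181b-5p and miR-181d-5p differ by C12U and by 1 base at the 3′ end. Between miR-181a-5p and miR-181c-5p the difference is 1 inner base that miR-181c-5p lacks. From miR-181a-5p to miR-181b-5p there are 3 substitutions, A9U, C10U and A21G, and 1 more base at the 3′ end. Pairs with 1 difference can exchange reads in counting, and the sources used here do not give how a read that matches several names was treated, so the split within each pair is uncertain.

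The 3p strands are shown because the numbered ones tell the hairpin of origin, which the shared guide miR-181a-5p hides.
mmu-miR-181a-1-3p: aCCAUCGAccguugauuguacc
mmu-miR-181a-2-3p: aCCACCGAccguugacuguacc
mmu-miR-181c-3p: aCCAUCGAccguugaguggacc
Against miR-181a-1-3p, miR-181a-2-3p has U5C and U16C, of which the first lies in the seed. The seed of miR-181c-3p is that of miR-181a-1-3p, and the 2 strands differ by U16G and U19G. Both miR-181a hairpins release an identical 5p strand, as the precursors show, with the mature arms in capitals.
Mir181a-1: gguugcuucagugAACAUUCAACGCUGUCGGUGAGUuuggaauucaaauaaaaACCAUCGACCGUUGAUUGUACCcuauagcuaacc
Mir181a-2: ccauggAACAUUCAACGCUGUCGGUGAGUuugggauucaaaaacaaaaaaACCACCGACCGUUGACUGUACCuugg

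On GRCm38, the assembly also called mm10, Mir181a-1 lies at chr1:137966455-137966541 and Mir181b-1 at chr1:137966639-137966718, both on the plus strand, with 97 bases between them. Both overlap an exon of the long noncoding RNA A430106G13Rik, Mir181a-1 only at its 3′ end, beyond its mature arms. Both also lie in an intron of the noncoding transcript Gm4258 (GENCODE M21). Mir181a-2 (chr2:38852735-38852810) and Mir181b-2 (chr2:38853830-38853918) are 1019 bases apart on the plus strand, opposite to an intron of Nr6a1, an orphan nuclear receptor gene. Mir181d (chr8:84178716-84178787) and Mir181c (chr8:84178873-84178961) are separated by 85 bases on the minus strand, in an intron of Nanos3, a germ cell gene.

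The db/+ library totalled 25915732 counts and the db/db library 24295112, and levels are given as CPM, counts per 1000000 microRNA counts of the library. The limit that a count of 0 allows was set at 3 counts, which is 0.116 CPM in the db/+ library and 0.123 CPM in the db/db library. Intervals are exact 95% intervals for counting error only, since reads without molecular identifiers are not independent molecules. All 4 smooth muscle names looked for (both arms of miR-143 and miR-145a) were present, at sums of 1656 CPM for db/+ and 1567 CPM for db/db. The 6 blood cell names, looked for because miR-181a is high in T cells, summed to 18 and 17 counts, and miR-142a-3p, miR-144-3p and miR-223-3p were at 0 in both libraries. Both names of the endothelial miR-126a were present and summed to 7 counts (0.270 CPM) for db/+ against 71 counts (2.92 CPM) for db/db. Most of that difference lay on miR-126a-5p, with 2 and 58 counts. For miR-126a-3p, with 5 and 13 counts, the interval of the ratio (0.928 to 9.94) included 1. The 4 neural names were all above 0 and summed to 20.8 CPM in db/+ against 3.99 CPM in db/db, where both arms of miR-9 were lower and miR-124-3p was higher (28 and 61 counts). The part of these cell types in the results below was not tested, and in RNA of a whole culture fewer cells of a type and less RNA per cell cannot be told apart.

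The guide strands as a group were higher in the db/db library. Their 4 names summed to 32687 counts in db/+ (1261 CPM, 0.126% of all microRNA counts) and to 43603 in db/db (1795 CPM, 0.179%). The ratio of db/db over db/+ was 1.42 with an interval of 1.40 to 1.44, and the log2 ratio was 0.51. This sum gathers the 4 names of a single seed. It would count a read more than once if the read stood under several of them, which was not tested. Among the microRNAs that passed the minimum count, 24 names in 11 groups, none of them members, had identical counts in both libraries. Names below that minimum were left out of this count. Without miR-181d-5p, an alternative chosen after the data were seen, the ratio of the sum was 1.37. Of 121 other microRNAs that reached 1000 counts in either library, 17 (14.0%) had a ratio as high or higher, and 65 had a ratio of at least 1.

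Among the guides, miR-181b-5p, the form best known from the vessel wall, was the most abundant in both libraries, with 453 CPM (445 to 461) for db/+ against 671 CPM (661 to 682) for db/db. Its rank among all names moved from 43 to 36. The ratio was 1.48 (1.45 to 1.52). Next came miR-181d-5p, with 408 CPM (400 to 416) for db/+ against 627 CPM (617 to 637) for db/db, with a ratio of 1.54 (1.499 to 1.58). Both strands thus lay about 1.5-fold higher in db/db.

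The third, miR-181a-5p, had 384 CPM (376 to 391) for db/+ against 477 CPM (468 to 486) for db/db, a ratio of 1.24 (1.21 to 1.28). It is the best studied member in lymphocytes. The fourth, miR-181c-5p, was far rarer, at 16.5 CPM (14.99 to 18.2) and 19.8 CPM (18.1 to 21.7), and its ratio was 1.20 (1.05 to 1.37). The order b, d, a, c was the same in both libraries, and no counting intervals of neighbours overlapped. CPM carries no length correction, and the 4 strands are 22 to 24 bases long.

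**Figure D1:**
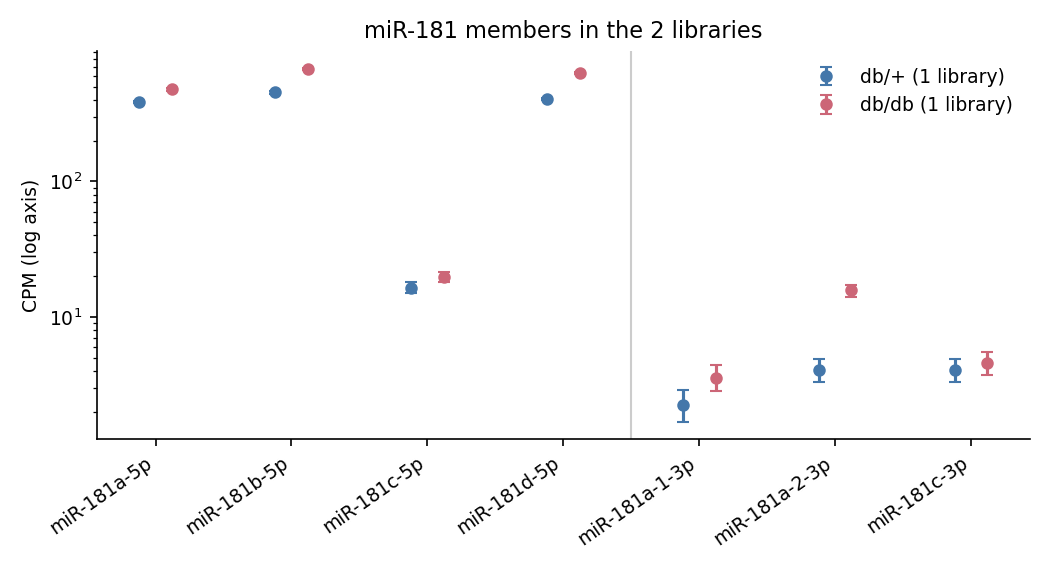
Level of each of the 7 members in CPM (log axis) in the db/+ and the db/db library, with exact Poisson 95% intervals for counting error; each point is 1 library. The guides a, b and d lie between 384 and 671 CPM, miR-181c-5p and the 3p strands lie at 19.8 CPM or below, and the widest gap between the libraries is at miR-181a-2-3p.

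The make-up of the guide sum shifted slightly toward b and d. The share of miR-181a-5p was 30.4% (29.9 to 30.9) for db/+ but 26.6% (26.2 to 27.0) for db/db, while miR-181b-5p took 35.9% (35.4 to 36.5) and 37.4% (37.0 to 37.9). For miR-181d-5p the shares were 32.3% (31.8 to 32.8) and 34.9% (34.5 to 35.4), and for miR-181c-5p 1.31% (1.19 to 1.44) and 1.11% (1.01 to 1.21). These shares are taken within a library and do not depend on scaling. The quotient of miR-181b-5p over miR-181a-5p was 1.18 in db/+ and 1.41 in db/db, a change of 1.19 (1.15 to 1.24).

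Within each pair of near-identical strands the 2 names had similar ratios. The quotient of miR-181d-5p over miR-181b-5p was 0.900 in db/+ and 0.934 in db/db, a change of 1.04 (1.002 to 1.07), and for miR-181c-5p over miR-181a-5p the change was 0.967 (0.845 to 1.11). Summed, the b and d strands had a ratio of 1.51 (1.48 to 1.53) and the a and c strands 1.24 (1.21 to 1.27). Although Mir181c and Mir181d are neighbours, their guides were far apart in level, with 24.7 counts of miR-181d-5p for each count of miR-181c-5p in db/+ and 31.6 in db/db. The 3p strands of those hairpins had the opposite order, with 106 and 111 counts of miR-181c-3p against 21 and 15 of miR-181d-3p. Whether reads of miR-181b-5p were counted under miR-181d-5p was not tested.

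The 3p strands were rare, and 1 of them stood apart. The chromosome 2 strand miR-181a-2-3p had 105 counts in the db/+ library (4.05 CPM, 3.31 to 4.90), and in the db/db library it had 382 (15.7 CPM, 14.2 to 17.4). The ratio was 3.88 (3.12 to 4.86), and its rank among all names went from 284 to 165. Its sister from chromosome 1, miR-181a-1-3p, had 58 counts (2.24 CPM, 1.70 to 2.89) and 87 (3.58 CPM, 2.87 to 4.42), a ratio of 1.60 (1.13 to 2.27). The chromosome 8 strand miR-181c-3p had 106 counts (4.09 CPM, 3.35 to 4.95) and 111 (4.57 CPM, 3.759 to 5.50), a ratio of 1.12 (0.848 to 1.47) whose interval included 1.

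The order of the 3p strands differed between the libraries. In db/+ miR-181c-3p and miR-181a-2-3p lay level with overlapping intervals, and miR-181a-1-3p lay below both. In db/db miR-181a-2-3p was highest, and the intervals of miR-181c-3p and miR-181a-1-3p overlapped.

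**Figure D2:**
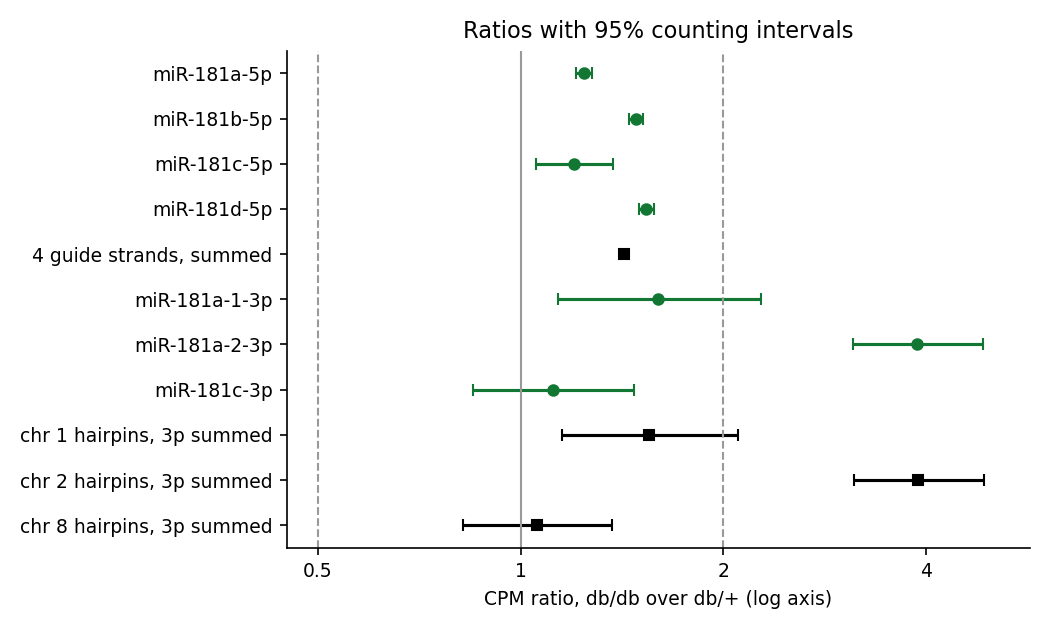
CPM ratio of the db/db over the db/+ library (log axis) for each member (circles) and for sums (squares), with exact 95% counting intervals; dashed lines mark 0.5 and 2. All points lie right of 1, and only miR-181a-2-3p (3.88) and the chromosome 2 sum that contains it (3.89) have intervals wholly beyond 2.

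With the limits for a call set at ratios of 2 and 0.5, 1 of the 7 members was called higher (miR-181a-2-3p) and 0 lower. Over all 356 microRNAs that passed the minimum of 50 counts, 4.49% were called higher and 13.5% lower. With a limit of 1.5-fold, 3 members were higher (miR-181a-2-3p, miR-181a-1-3p and miR-181d-5p), against 13.5% of all 356. Under each of the 5 other scalings miR-181b-5p passed it too. Those scalings raised all ratios, and the share of all 356 past 1.5-fold was not counted under them. Ratios were above 1 for 7 of the 7 members and for 153 of the 356. The median log2 ratio was 0.57 over the members, with a range of 0.16 to 1.95, and -0.14 over the 356. Strands of 1 duplex and near-identical names are not independent, so the member count describes these libraries only.

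**Figure D3:**
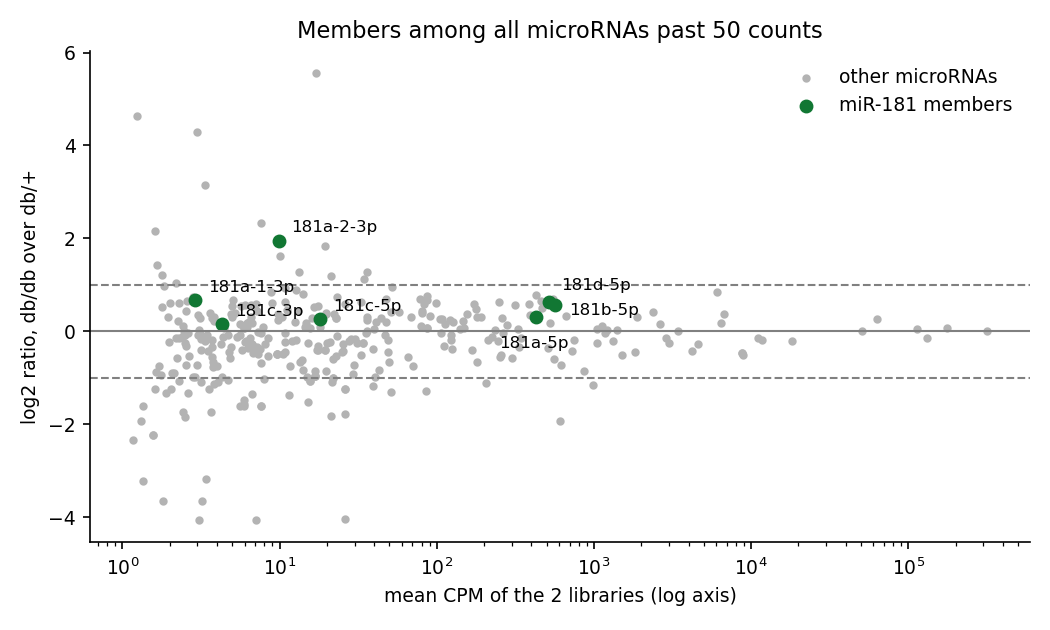
Log2 ratio of db/db over db/+ against the mean CPM of the 2 libraries (log axis) for the 356 microRNAs that passed the minimum of 50 counts; green points are the 7 members and dashed lines mark a 2-fold difference. The members lie above 0, from 0.16 to 1.95, and miR-181a-2-3p is the only member beyond the dashed line.

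Sorted by hairpin of origin, most of the additional 3p counts in db/db lay on chromosome 2. Of the counts on miR-181a-1-3p and miR-181a-2-3p together, miR-181a-2-3p held 64.4% (56.6 to 71.7) of 163 counts for db/+ but 81.4% (77.6 to 84.9) of 469 for db/db, an odds ratio of 2.42 (1.60 to 3.67). The share was 17.0 percentage points higher in db/db, and the intervals did not overlap. The family's 3p counts, taken over all 6 names and grouped by locus, came to 309 for db/+ against 621 for db/db. The chromosome 2 hairpins held 34.0% (28.7 to 39.6) of them for db/+ but 61.7% (57.7 to 65.5) for db/db. For the chromosome 1 hairpins the shares were 24.9% (20.2 to 30.1) and 18.0% (15.1 to 21.3), and for the chromosome 8 hairpins 41.1% (35.6 to 46.8) and 20.3% (17.2 to 23.7).

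In CPM, the summed 3p strands of chromosome 2 had a ratio of 3.89 (3.13 to 4.88), those of chromosome 1 had 1.55 (1.15 to 2.10) and those of chromosome 8 had 1.06 (0.821 to 1.36). The chromosome 2 sum was nearly all miR-181a-2-3p, since miR-181b-2-3p was at 0 counts in db/+ with 1 count in db/db. Its counterpart miR-181b-1-3p had 19 and 25 counts, a ratio of 1.40 (0.742 to 2.70). By name, the 3p strand of miR-181b was thus detected almost only from chromosome 1, and that of miR-181a mostly from chromosome 2. From miR-181b-1-3p to miR-181b-2-3p the differences are A9U and 1 base at the 3′ end. Whether reads were exchanged between these 2 names was not tested.

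Other microRNAs with a form numbered 1 and a form numbered 2 of the same arm gave smaller shifts. There were 5 such pairs with at least 50 counts on each form over both libraries, and 0 of them moved by 10 percentage points. The widest was miR-125b, whose second 3p form went from 6.90% (4.91 to 9.39) to 3.66% (2.33 to 5.44). For miR-30c the share went from 95.5% to 97.1%, for miR-365 from 78.4% to 77.3%, for miR-16 from 16.2% to 15.3%, and for miR-129 it was 99.8% in each. Shares near 0 or 100% leave less room in percentage points, and as odds ratios miR-30c had 1.59 (1.14 to 2.24) and miR-125b 0.512 (0.286 to 0.898).

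**Figure D4:**
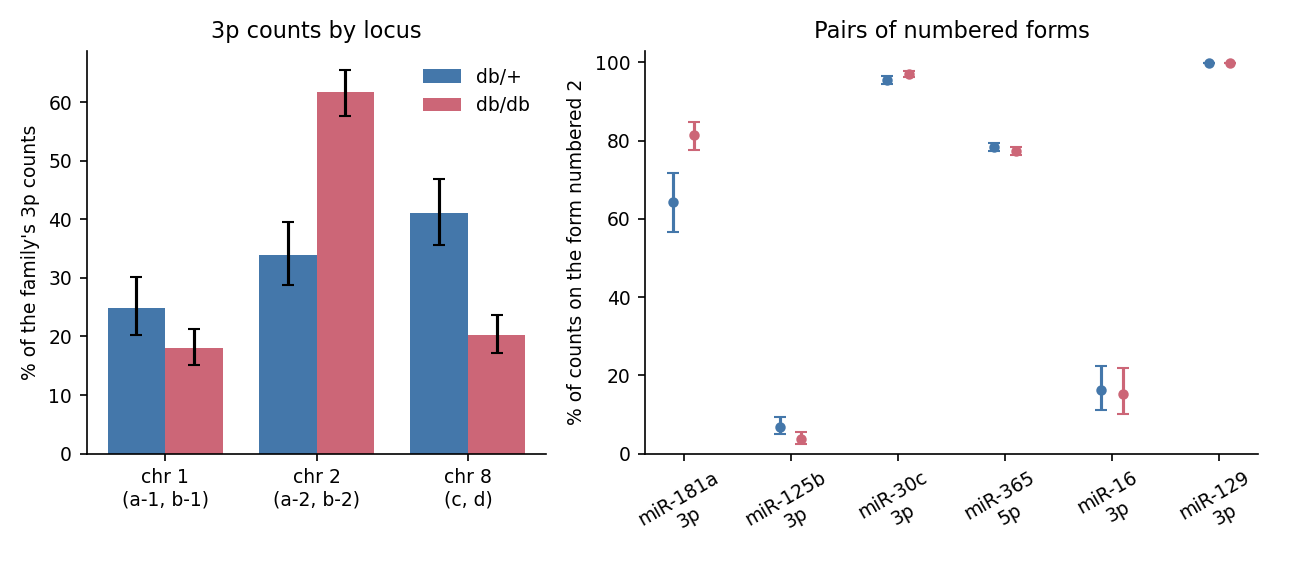
Left, share of the family's 3p counts by locus (bars, % of 309 counts for db/+ or 621 for db/db); right, share of counts on the form numbered 2 for 6 microRNAs with numbered forms. Error bars are exact binomial 95% intervals, and the chromosome 2 bar goes from 34.0% to 61.7% while the miR-181a share goes from 64.4% to 81.4%.

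The ratio of miR-181a-2-3p was larger than that of the guide miR-181a-5p. Counting both numbered 3p forms, miR-181a had 1.64 counts on the 3p arm per 100 on the 5p arm in db/+ and 4.05 in db/db, a change of 2.47 (2.06 to 2.98). Set against miR-181a-5p, miR-181a-2-3p alone changed by 3.12 (2.51 to 3.92) and miR-181a-1-3p by 1.29 (0.913 to 1.83). How much of miR-181a-5p came from each hairpin cannot be told apart, as the strands are identical. The 5p arm was the major arm by a wide margin in both libraries.

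For miR-181c the 3p arm was a far larger part, with 24.8 counts per 100 on the 5p arm in db/+ and 23.0 in db/db, a change of 0.930 (0.684 to 1.26). The 3p arms of miR-181b, at 0.162 and 0.159 per 100, and of miR-181d, at 0.199 and 0.0985, were almost absent, and the intervals of their changes (0.524 to 1.88 and 0.238 to 1.01) included 1.

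Other hairpins also had arm quotients that differed between the libraries. Over 182 hairpin names whose arms together reached 50 counts in each of the libraries, neither arm being at 0, 14.3% had a quotient at least 2-fold higher in db/db and 14.3% at least 2-fold lower. Among the 106 of these with at least 50 counts on each arm over both libraries, a limit chosen after the values were seen, the shares were 8.49% and 7.55%. Of all 182 names, 14 had a larger change than miR-181a. In the set of 106 those above it were miR-199b and miR-140, with changes of 9.88 (4.36 to 27.7) and 3.71 (2.81 to 4.96). Both are hairpins whose 3p arm is the major arm, and miR-199b-3p shares its sequence with miR-199a-3p.

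**Figure D5:**
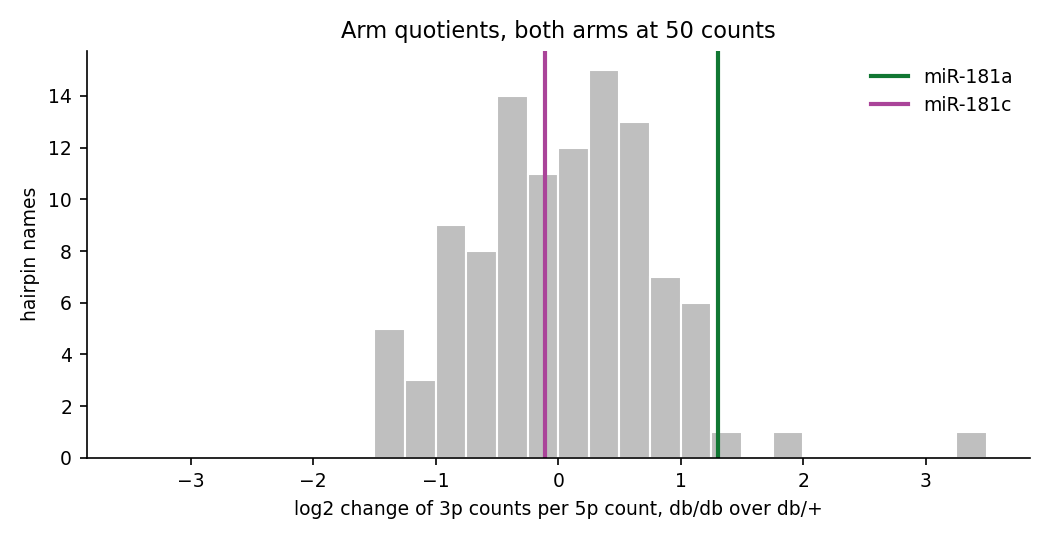
Number of hairpin names by the log2 change of 3p counts per 5p count between db/db and db/+, for the 106 names with at least 50 counts on each arm over both libraries; vertical lines mark miR-181a and miR-181c. The line of miR-181a, a change of 2.47-fold, has 2 of the 106 names to its right, and that of miR-181c, 0.930-fold, lies near 0. The limit behind the 106 names was chosen after the values were seen. Of all 182 names, 14 had a larger change than miR-181a.

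The chromosome 8 pair has other microRNAs nearby, unlike the pairs on chromosomes 1 and 2, where the annotation lists none within 100 kb. About 29.7 kb from Mir181d, on the opposite strand, begins the Mir23a, Mir27a and Mir24-2 cluster, known from vascular and muscle growth control. In it miR-23a-3p had a ratio of 0.552 (0.541 to 0.563), on 28828 and 14920 counts, while miR-23a-5p had 1.34 (1.24 to 1.44). The ratio of miR-27a-3p was 0.916 (0.882 to 0.9505) and that of miR-24-3p 0.836 (0.822 to 0.851), the latter also made from a second hairpin elsewhere. For miR-24-2-5p, which belongs to this cluster alone, it was 0.827 (0.624 to 1.09), on 120 and 93 counts. Apart from miR-23a-5p and the rare miR-27a-5p (30 and 39 counts, 1.39, 0.840 to 2.31), these strands had ratios below 1, while the miR-181c and miR-181d guides lay above it. Opposite to Mir24-2, on the strand of Mir181d, Mir3074-2 had at most 1 count on any of its names. Also within 100 kb, Mir709 gives miR-709, which had 136 and 190 counts and a ratio of 1.49 (1.19 to 1.87).

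Other microRNAs that act on NF-kB or vascular inflammation mostly had ratios below 1, unlike the guides. Of 12 such names 10 passed the minimum, of which 1 was at least 2-fold higher (miR-146a-5p) and 4 at least 2-fold lower (miR-146b-5p, miR-15a-5p, miR-16-5p and miR-17-5p), against 4.49% and 13.5% of all 356. Ratios above 1 were found for 2 of the 10, against 153 of all 356, and the median log2 ratio was -0.59, against -0.14 over all 356. The guide sum had 0.51. The 2 were miR-146a-5p, a feedback inhibitor of TRAF6 and IRAK1, at 5.05 (3.86 to 6.71), and miR-10a-5p, at 1.79 (1.78 to 1.81). Both miR-155-5p, made by activated immune and vascular cells, at 0.629 (0.579 to 0.682), and miR-31-5p, at 0.911 (0.884 to 0.939), were lower. The list was drawn up with earlier results of these data known, so its counts describe these names only.

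The abundant microRNAs whose ratio was closest to that of the guide sum, by the difference of log2 ratios over the 2 libraries, were miR-433-3p (1.41, 1.37 to 1.45), miR-485-5p (1.39, 1.33 to 1.45), miR-382-5p (1.48, 1.43 to 1.52), miR-345-3p (1.348, 1.27 to 1.44) and miR-329-3p (1.51, 1.44 to 1.57). With 2 libraries, likeness means a similar ratio and nothing more.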

How the data were processed

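Small RNA of 2 cultures, 1 per group, was analysed from the deposited tables. Each table holds, per the file headers, raw read counts for every mature microRNA name and the authors' TMM-normalized version of them. Novoalign, edgeR and mm10 are listed, without roles, in the submitters' processing notes. Not given in the sources used here are trimming, mismatch limits and how a read with several matches was counted. The deposited normalized reads are whole numbers, close to the raw counts times 0.939 (db/+) or 1.06 (db/db), so they were treated as a score and used only as an alternative.

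Groups followed the sample titles. Counts were divided by the library total (CPM). Ratios carry exact conditional 95% intervals and shares exact binomial (Clopper-Pearson) ones, computed in scipy 1.17.1. Log2 ratios had 0.5 counts added. The quasi-likelihood test of edgeR needs replicates and was not run, so there are no p-values. Alternatives used scaling factors of edgeR 4.0.16 and DESeq2 1.42.0. On 344 microRNAs simulated with Poisson counts, 96.2% of the db/db over db/+ intervals held the simulated ratio. The intervals are exact for such counts, so this checks the computation only and not the spread between cultures. Sequences came from RefSeq and gene positions from GENCODE M21.

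The named microRNAs were the 7 members, other names beginning miR-181, names that share the guides' seed, the 5 closest ratios with at least 1000 counts, microRNAs within 100 kb, the NF-kB list, the cell type names, and up to 6 pairs of numbered forms. The members and lists were chosen with earlier results of these data known.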

Additional observations from a re-analysis of the deposited data

How the results depend on the processing

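Scaling moved the ratios of the guide sum and of the a, b and d guides upward, beyond their counting intervals. The guide sum had a ratio of 1.51 with edgeR TMM factors, 1.51 with DESeq2 size factors (1.515), 1.52 with upper-quartile factors, 1.48 without the 10 most abundant microRNAs and 1.51 with the deposited normalized reads (1.512). These scalings shifted the median log2 ratio of all 356 microRNAs by 0.059 to 0.097. Over the members, 42 of 42 ratios stayed above 1, the main values included. Each scaling multiplies all ratios by about the same factor, and each raised them, so no ratio above 1 could fall below it. The deposited normalized reads nearly repeat the edgeR TMM factors. Of the 35 alternative values, 15, those of the a, b and d guides, left their intervals. Without miR-181d-5p the guide sum had 1.37. At 1.5-fold 3 members passed in place of 1, against 13.5% of all 356. With each of the 5 other scalings 4 members passed 1.5-fold, and the share of all 356 was not counted there. At 2-fold 1 did under each other minimum and scaling. Over all microRNAs, 46 were higher and 91 lower at a minimum of 10 counts, and 171 and 259 with none. At 1.5-fold 48 and 86 of the 356 were. These counts follow from the limits themselves. The number of names past each other minimum is not given here, so those counts cannot be read as shares. The numbered 3p share, the miR-181a arm quotient and the share of each guide need no scaling. The deposited normalized reads, close to the raw counts times 1 factor per library, could change these values only by rounding, and they stayed within their intervals. With 0.5 counts added these values also stayed within their intervals, as did the miR-181a-5p share with near-identical names merged. Depth limits the 3p strands most, as their intervals show. No paired analysis was possible because there is 1 library on each side, and omitting either ends the comparison.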
